A study of Mus musculus with 15 samples.

Results

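The 41 genes described here encode molecular chaperones of the cytosol and of the endoplasmic reticulum, out of 23845 genes in the deposited tables. They were taken by gene symbol alone from a list of known chaperones, drawn up with earlier results of these data in view. All 41 were found, and all 41 were among the 14335 genes with enough counts to test. The list names 23 genes as cytosolic chaperones of the heat shock factor 1 (HSF1) type or subunits of the chaperonin TRiC, and 18 as chaperones and unfolded protein response genes of the endoplasmic reticulum. Of the 23, Hspd1 and Hspe1 encode the chaperonin of the mitochondrial matrix and its lid. They are described apart from the rest below, but every count, median and sum of the 23 includes them. Messages were measured in E14 mouse embryonic stem cells, an established line, after transfection with small interfering RNA. The groups were Ddx10KD, Ddx24KD, Ddx27KD and Ddx54KD, each with knockdown of 1 DEAD-box RNA helicase, and EGFPKD, in which the RNA was directed at EGFP, as the control. All 5 groups were of the same line and had the same transfection (400 ng of RNA and 4 µL of Lipofectamine for 16 h, on plates coated with 0.2% gelatin) and were collected at 48 h, with 3 libraries in each. By its title the series is about R-loop binding proteins and the processing of ribosomal RNA.

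Chaperones bind unfolded stretches of other proteins and keep them from aggregating while they fold. In the cytosol the HSP70 and HSP90 machines, with co-chaperones that steer their ATP cycles, and the ring-shaped chaperonin TRiC serve newly made proteins, and HSF1 raises many of their messages when proteins unfold. In the lumen of the endoplasmic reticulum, BiP (Hspa5), GRP94 (Hsp90b1), lectins and disulfide isomerases fold secreted and membrane proteins, and the unfolded protein response, through the sensors IRE1, PERK and ATF6, raises their messages when that folding fails.

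Some of the promoters of these genes carry known stress elements. They are shown because the factors of both stress responses bind such letters, and because the members printed turn up in the results below. RefSeq windows on GRCm38.p6, from 250 bases before to 50 bases after a start, were matched by symbol for 35 of the 41 members (19 cytosolic and 16 of the endoplasmic reticulum). Both strands were searched. The endoplasmic reticulum stress element (CCAAT, any 9 bases, then CCACG) was found in 7 of the 16 windows of endoplasmic reticulum members, those of Calr, Canx, Creld2, Dnajc3, Hsp90b1, Hspa5 and Pdia6, in 0 of the 19 cytosolic windows and in 0.119% of all 32851 windows. Its variant ERSE-II (ATTGG, any 1 base, then CCACG) was found in Herpud1 and Dnajb11 and in 0.0365% of all windows. A heat shock element of 3 units (the units GAA, TTC and GAA with any 2 bases between them) was found in the cytosolic members Chordc1, Hsph1, Hspd1 and Hspe1, in 0 endoplasmic reticulum windows and in 0.603% of all windows. The exact letters searched for ATF4 (TGATGNAAT, 0.965% of all windows) and for XBP1 (TGACGTGG, 0.676%) were found in 0 member windows. Other forms of these elements were not searched for, so their absence is not shown. The Herpud1 window printed below holds, on its other strand, letters that differ from those searched for ATF4 in the last base alone. A match describes letters in a window and shows neither a bound site nor a cause. Below, capitals mark the endoplasmic reticulum stress element in Hspa5, Canx and Dnajc3, ERSE-II in Herpud1 and overlapping heat shock elements of both strands in Hspe1, whose window is shared with the divergent gene Hspd1. Herpud1 is at chr8:94386179-94386478 on the forward strand, Hspa5 at chr2:34771840-34772139 on the forward strand, Canx at chr11:50325624-50325923 on the reverse strand, Dnajc3 at chr14:118937682-118937981 on the forward strand and Hspe1 at chr1:55087898-55088197 on the forward strand, each written 5′ to 3′ on the strand of its gene.
Herpud1: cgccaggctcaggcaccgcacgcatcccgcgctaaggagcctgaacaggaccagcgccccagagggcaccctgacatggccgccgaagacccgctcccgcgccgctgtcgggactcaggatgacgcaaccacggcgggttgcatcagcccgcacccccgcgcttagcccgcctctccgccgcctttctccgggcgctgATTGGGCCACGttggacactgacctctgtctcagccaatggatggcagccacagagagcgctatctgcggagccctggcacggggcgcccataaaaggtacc
Hspa5: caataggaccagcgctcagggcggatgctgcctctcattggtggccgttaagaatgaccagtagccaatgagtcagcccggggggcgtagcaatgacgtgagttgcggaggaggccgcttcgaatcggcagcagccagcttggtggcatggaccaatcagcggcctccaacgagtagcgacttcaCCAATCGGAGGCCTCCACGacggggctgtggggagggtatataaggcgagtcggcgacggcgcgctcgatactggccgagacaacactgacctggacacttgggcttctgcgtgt
Canx: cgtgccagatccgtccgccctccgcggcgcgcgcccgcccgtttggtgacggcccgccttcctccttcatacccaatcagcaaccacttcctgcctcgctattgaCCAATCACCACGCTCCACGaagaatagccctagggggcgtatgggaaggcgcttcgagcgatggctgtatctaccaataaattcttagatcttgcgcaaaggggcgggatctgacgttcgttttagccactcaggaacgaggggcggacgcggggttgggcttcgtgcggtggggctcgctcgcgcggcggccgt
Dnajc3: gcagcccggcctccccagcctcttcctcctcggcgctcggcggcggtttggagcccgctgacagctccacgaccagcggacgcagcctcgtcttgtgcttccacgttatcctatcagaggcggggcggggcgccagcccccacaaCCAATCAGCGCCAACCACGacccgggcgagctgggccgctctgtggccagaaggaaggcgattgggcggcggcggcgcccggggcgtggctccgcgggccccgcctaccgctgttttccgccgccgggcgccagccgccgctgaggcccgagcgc
Hspe1: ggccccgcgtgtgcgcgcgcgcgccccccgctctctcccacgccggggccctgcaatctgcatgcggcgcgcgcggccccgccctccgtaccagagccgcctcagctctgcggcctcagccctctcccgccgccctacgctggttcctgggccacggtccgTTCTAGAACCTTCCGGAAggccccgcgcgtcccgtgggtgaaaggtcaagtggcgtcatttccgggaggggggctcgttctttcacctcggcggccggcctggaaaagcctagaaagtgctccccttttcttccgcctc

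Each library held 26836946 to 27708782 expected counts, the estimated reads per gene that the authors deposited. The targeted messages were at 18.5% ± 4.25 (Ddx10), 30.8% ± 4.89 (Ddx24), 22.7% ± 0.818 (Ddx27) and 28.0% ± 4.68 (Ddx54) of the EGFPKD mean in their own knockdowns (SD, n = 3 each). The 12 knockdown libraries lay between -20.1 and 2.67 on the first principal component, which held 42.0% of the variance, and EGFPKD libraries lay between 39.7 and 45.2. Ddx24KD replicate 2 differed most from its group, and counts without it are given beside the results for Ddx24KD. The summed level of 9 stem cell markers was 7024 to 7393 TPM (a level per transcript length, scaled to the same total in each library) in knockdown and 7141 to 7332 TPM in EGFPKD libraries, and all 9 were present in every library. Single stem cell markers differed over the 5 groups in both directions in edgeR. Zfp42 averaged 702 TPM in knockdown and 871 TPM in EGFPKD libraries (adjusted p 5.94e-05), Nanog 472 TPM in knockdown and 589 TPM in EGFPKD libraries (adjusted p 0.000833), Tfcp2l1 96.2 TPM in knockdown and 111 TPM in EGFPKD libraries (adjusted p 0.0138), and Sox2 591 TPM in knockdown and 498 TPM in EGFPKD libraries (adjusted p 0.00477). Markers of fibroblasts were low: 8 of them summed to 11.7 to 17.9 TPM in knockdown and 18.7 to 26.6 TPM in EGFPKD libraries, mostly Thy1, with Postn at 0 in all 15 libraries. The 11 endoderm and secretory cell markers summed to 212 to 293 TPM in knockdown and 261 to 279.8 TPM in EGFPKD libraries, and 5 mesoderm markers to 7.28 to 10.9 TPM in knockdown and 8.67 to 10.7 TPM in EGFPKD libraries. Most of the endoderm and secretory sum was Sparc (133 to 199 TPM), Lamb1 (47.9 to 64.7 TPM) and Lama1 (18.2 to 30.5 TPM). Gata4, Gata6, Sox17 and Foxa2 were each at most 3.09 TPM. Of these other markers Thy1 (adjusted p 0.00297), Lama1 (adjusted p 0.00119) and Sparc (adjusted p 0.0105) differed over the 5 groups in edgeR, and averaged 13.0 (Thy1), 22.96 (Lama1) and 163 (Sparc) TPM in knockdown libraries, against 20.25 (Thy1), 29.7 (Lama1) and 174.5 (Sparc) TPM in EGFPKD libraries. By group mean, Sparc was highest in Ddx54KD and lowest in Ddx10KD, with EGFPKD between them. The part of these markers in the results was not tested.

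In each knockdown 11 to 15 of the 23 cytosolic chaperone messages were lower than in EGFPKD, by at most 0.42 on the log2 scale, and none was called higher by edgeR without a replicate block, while 3 to 9 of the 18 of the endoplasmic reticulum were called, in both directions. A member is called where its edgeR adjusted p, over all genes tested, was under 0.05. The mitochondrial Hspd1 and Hspe1 are counted among the 23, and both were among the lower calls in each knockdown. In Ddx10KD 14 of the 23 cytosolic members fell and 0 rose, where 31% of all genes were called (14.5% lower and 16.5% higher). In Ddx24KD 11 fell and 0 rose (28.1% of all genes called, 13.1% lower and 15% higher), in Ddx27KD 15 fell and 0 rose (33.4% called, 16.1% lower and 17.3% higher), and in Ddx54KD 11 fell and 0 rose (24.3% called, 11.2% lower and 13.1% higher). The median log2 change of the 23 was -0.16 in Ddx10KD, -0.17 in Ddx24KD, -0.25 in Ddx27KD and -0.18 in Ddx54KD, beside 0.00 to 0.01 for all genes tested. Of the 18 endoplasmic reticulum members, 4 rose and 5 fell in Ddx10KD, 2 rose and 1 fell in Ddx24KD, 2 rose and 3 fell in Ddx27KD, and 2 rose and 2 fell in Ddx54KD, with median log2 changes of 0.00 in Ddx10KD, 0.04 in Ddx24KD, -0.01 in Ddx27KD and 0.03 in Ddx54KD. At an unadjusted p under 0.05, 0 cytosolic members were higher in any knockdown, and DESeq2 and limma-voom called 0 higher. On log2(TPM + 1), limma called 1 cytosolic member, Chordc1, higher in Ddx10KD, beside 10 lower. In these bulk samples fewer expressing cells and less RNA per cell cannot be told apart. The 4 comparisons share the 3 EGFPKD libraries, so their agreement is not independent.

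**Figure D1:**
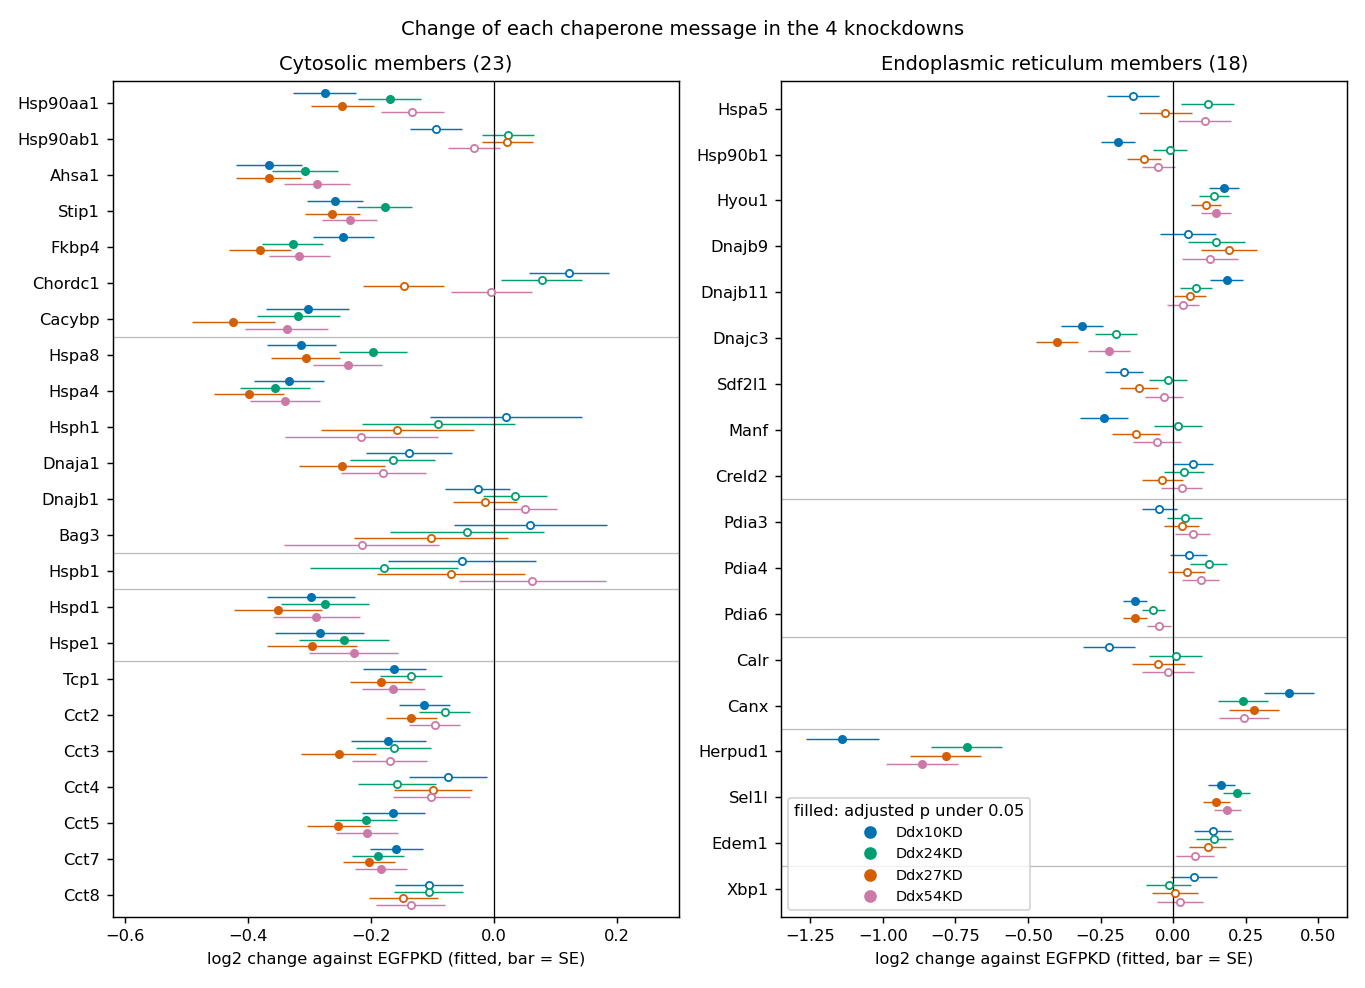
Fitted log2 change against EGFPKD of each of the 23 cytosolic (left) and 18 endoplasmic reticulum members (right) in Ddx10KD, Ddx24KD, Ddx27KD and Ddx54KD; bars are SE, filled points have an edgeR adjusted p under 0.05, and grey lines part the roles. Every filled cytosolic point lies left of 0, whereas filled endoplasmic reticulum points lie on both sides, with Herpud1 farthest left at -1.14 in Ddx10KD; the 2 panels have different x scales.

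Some of these counts depend on single libraries or on the pairing of replicates. The replicate numbers pair libraries across groups, and with the number as a block in the model the cytosolic members that fell were 17 in Ddx10KD (1 rose), 17 in Ddx24KD, 18 in Ddx27KD and 18 in Ddx54KD, where 21.3% (Ddx10KD), 19.9% (Ddx24KD), 22.6% (Ddx27KD) and 18.8% (Ddx54KD) of all genes fell. The endoplasmic reticulum members called with the block were 13 in Ddx10KD (5 higher), 8 in Ddx24KD (6 higher), 9 in Ddx27KD (4 higher) and 5 in Ddx54KD (3 higher), where 44% (22.8% higher), 41.2% (21.3% higher), 45.8% (23.3% higher) and 38.9% (20% higher) of all genes were called in these knockdowns. Without Ddx24KD replicate 2, the Ddx24KD counts were 13 cytosolic and 6 endoplasmic reticulum members called, and 29.7% of all genes. For Ddx10KD the endoplasmic reticulum count of 9 was 4 without Ddx10KD replicate 3 (22% of all genes called) or EGFPKD replicate 1 (24.1%), and 5 without EGFPKD replicate 2 (24.5%). For Ddx27KD the count of 5 was 3 without Ddx27KD replicate 2 (26.9% of all genes), Ddx27KD replicate 3 (29%) or EGFPKD replicate 2 (27.2%), and 2 without EGFPKD replicate 1 (26.8%). For Ddx54KD the count of 4 was 2 without Ddx54KD replicate 3 (15.4% of all genes) or EGFPKD replicate 1 (17.3%). On log2(TPM + 1) with limma, 65.0% of the calls over all genes in Ddx10KD were higher, beside 53.2% in edgeR.

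Over the 5 groups together, 18 of the 41 members differed (14 cytosolic and 4 of the endoplasmic reticulum), where 29% of all genes did. With the replicate block 33 did, where 49.5% of all genes did. In at least 1 knockdown 24 members were called, beside 43.9% of all genes, and without the block no member rose in one knockdown and fell in another. With the block Chordc1 rose in Ddx10KD, with a log2 change of 0.12 ± 0.05 (edgeR adjusted p 0.0493), and fell in Ddx27KD, with -0.15 ± 0.05 (edgeR adjusted p 0.0204). Hspa5 likewise fell in Ddx10KD, with -0.14 ± 0.04 (edgeR adjusted p 0.0109), and rose in Ddx24KD, with 0.11 ± 0.04 (edgeR adjusted p 0.0346). Without the block 10 listed cytosolic members fell in all 4 knockdowns, Ahsa1, Stip1, Fkbp4, Cacybp, Hspa8, Hspa4, Cct5, Cct7 and mitochondrial Hspd1 and Hspe1. So did 1 of the endoplasmic reticulum, Herpud1, where 7.31% of all genes fell in all 4. Sel1l rose in all 4, as did 9.32% of all genes.

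Fkbp4 and Ahsa1, of HSP90 and its co-chaperones, had the smallest p over the 5 groups among the cytosolic 23, followed by Hspa4 of the HSP70 system. Of the 7 members among HSP90 and its co-chaperones, 5 fell in Ddx10KD, Ddx24KD and Ddx27KD and 4 in Ddx54KD. Over all genes, 14.5% fell in Ddx10KD, 13.1% in Ddx24KD, 16.1% in Ddx27KD and 11.2% in Ddx54KD. Ahsa1, which encodes the AHA1 activator of the HSP90 ATPase, was measured, in CPM (read counts scaled to a common library size with edgeR's TMM factors), at 203, 196 and 189 in Ddx10KD, 199, 219 and 195 in Ddx24KD, 192, 202 and 194 in Ddx27KD, and 211, 214 and 196 in Ddx54KD libraries, against 246, 264 and 248 in EGFPKD libraries, with replicates 1, 2 and 3 in that order here and below. Every knockdown library lay below every EGFPKD library. For Ahsa1 the log2 change was -0.37 ± 0.05 in Ddx10KD, -0.31 ± 0.05 in Ddx24KD, -0.37 ± 0.05 in Ddx27KD and -0.29 ± 0.05 in Ddx54KD. In edgeR, Ahsa1 had an adjusted p of 9.49e-05 in Ddx10KD, 0.000504 in Ddx24KD, 7.71e-05 in Ddx27KD and 0.00102 in Ddx54KD.

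Fkbp4 encodes FKBP52, an immunophilin that works with HSP90 on steroid receptors. Its CPM were 615, 637 and 600.3 in Ddx10KD, 576, 618 and 556 in Ddx24KD, 568, 565 and 553 in Ddx27KD, and 595, 616 and 552 in Ddx54KD libraries, against 716, 750.3 and 729 in EGFPKD libraries. No knockdown library reached an EGFPKD library for Fkbp4, and the Ddx27KD libraries lay closest together. For Fkbp4 the log2 change was -0.25 ± 0.05 in Ddx10KD, -0.33 ± 0.05 in Ddx24KD, -0.38 ± 0.05 in Ddx27KD and -0.32 ± 0.05 in Ddx54KD. In edgeR, Fkbp4 had an adjusted p of 0.00145 in Ddx10KD, 0.000153 in Ddx24KD, 2.74e-05 in Ddx27KD and 0.000246 in Ddx54KD. Cacybp, whose product binds S100 proteins and the ubiquitin ligase partner SIAH1, was at 373, 390.3 and 335 in Ddx10KD, 354, 396 and 337 in Ddx24KD, 340.1, 339 and 331 in Ddx27KD, and 376, 369 and 327 in Ddx54KD libraries, against 457, 457 and 441 in EGFPKD libraries (CPM). Replicate 3 was the lowest of each group, and no knockdown library reached an EGFPKD library. For Cacybp the log2 change was -0.30 ± 0.07 in Ddx10KD, -0.32 ± 0.07 in Ddx24KD, -0.42 ± 0.07 in Ddx27KD and -0.34 ± 0.07 in Ddx54KD. In edgeR, Cacybp had an adjusted p of 0.00283 in Ddx10KD, 0.00232 in Ddx24KD, 0.000171 in Ddx27KD and 0.00181 in Ddx54KD.

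Stip1 encodes HOP, the adaptor that hands clients from HSP70 to HSP90, and stood at 655, 665 and 621 in Ddx10KD, 689.7, 712 and 652 in Ddx24KD, 649.8, 642 and 644 in Ddx27KD, and 674, 669 and 631 in Ddx54KD libraries, against 778, 790.3 and 754 in EGFPKD libraries (CPM). All knockdown libraries were below all EGFPKD libraries. For Stip1 the log2 change was -0.26 ± 0.05 in Ddx10KD, -0.18 ± 0.05 in Ddx24KD, -0.26 ± 0.05 in Ddx27KD and -0.24 ± 0.05 in Ddx54KD. In edgeR, Stip1 had an adjusted p of 0.00045 in Ddx10KD, 0.00776 in Ddx24KD, 0.000331 in Ddx27KD and 0.00137 in Ddx54KD.

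Of the HSP90 genes themselves, Hsp90aa1 was called in 3 knockdowns and Hsp90ab1 in none. Hsp90aa1, the stress-inducible cytosolic HSP90, was at 5139, 5476 and 4944 in Ddx10KD, 5543, 5947 and 5251 in Ddx24KD, 5159, 5393 and 5315 in Ddx27KD, and 5809, 5821 and 5541 in Ddx54KD libraries, against 6394, 6390.1 and 6046 in EGFPKD libraries (CPM). Its knockdown libraries all lay below the EGFPKD libraries. For Hsp90aa1 the log2 change was -0.28 ± 0.05 in Ddx10KD, -0.17 ± 0.05 in Ddx24KD, -0.25 ± 0.05 in Ddx27KD and -0.13 ± 0.05 in Ddx54KD. In edgeR, Hsp90aa1 had an adjusted p of 0.000791 in Ddx10KD, 0.0211 in Ddx24KD, 0.00155 in Ddx27KD and 0.0699 in Ddx54KD. It fell in Ddx10KD, Ddx24KD and Ddx27KD, and with the block also in Ddx54KD, at -0.13 ± 0.03 (edgeR adjusted p 0.00392). Hsp90aa1 lost its Ddx24KD call without Ddx24KD replicate 1 or 3 or EGFPKD replicate 1 or 2 (edgeR adjusted p 0.0543 to 0.107). Hsp90ab1 is the constitutive HSP90. Its log2 change was -0.09 in Ddx10KD, 0.02 in Ddx24KD, 0.02 in Ddx27KD and -0.03 in Ddx54KD, and with the block it was called in Ddx10KD alone, at -0.09 ± 0.03 (edgeR adjusted p 0.0209). Chordc1, a zinc-binding HSP90 partner, had log2 changes of 0.12 in Ddx10KD, 0.08 in Ddx24KD and -0.15 in Ddx27KD and was called in no knockdown. With the block the Ddx10KD value, 0.12, and the Ddx27KD value, -0.15, were both called (edgeR adjusted p 0.0493 in Ddx10KD and 0.0204 in Ddx27KD).

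In the cytosolic HSP70 system 2 of 6 members fell in Ddx10KD, Ddx24KD and Ddx54KD, and 3 in Ddx27KD. Over all genes, 14.5% fell in Ddx10KD, 13.1% in Ddx24KD, 16.1% in Ddx27KD and 11.2% in Ddx54KD. Hspa8, the constitutive HSC70, was at 6146, 6144 and 5761 in Ddx10KD, 6339.8, 7144 and 6089.7 in Ddx24KD, 5868, 6195 and 6085 in Ddx27KD, and 6586, 6464 and 5978 in Ddx54KD libraries, against 7462, 7465 and 7508 in EGFPKD libraries (CPM). The 3 EGFPKD libraries lay close together, and every knockdown library was lower, with Ddx24KD replicate 2 the nearest. For Hspa8 the log2 change was -0.31 ± 0.06 in Ddx10KD, -0.20 ± 0.06 in Ddx24KD, -0.31 ± 0.06 in Ddx27KD and -0.24 ± 0.06 in Ddx54KD. In edgeR, Hspa8 had an adjusted p of 0.000554 in Ddx10KD, 0.0149 in Ddx24KD, 0.000568 in Ddx27KD and 0.00567 in Ddx54KD. Hspa8 lost its Ddx24KD call without Ddx24KD replicate 1 or 3 (edgeR adjusted p 0.0542 to 0.0813). Hspa4, an HSP110-type exchange factor that releases nucleotide from HSP70, was at 1272, 1219.7 and 1280.3 in Ddx10KD, 1277, 1165 and 1271 in Ddx24KD, 1198, 1134 and 1271 in Ddx27KD, and 1339, 1186 and 1232 in Ddx54KD libraries, against 1611, 1506 and 1634 in EGFPKD libraries (CPM). Here too every knockdown library was below every EGFPKD library. For Hspa4 the log2 change was -0.33 ± 0.06 in Ddx10KD, -0.36 ± 0.06 in Ddx24KD, -0.40 ± 0.06 in Ddx27KD and -0.34 ± 0.06 in Ddx54KD. In edgeR, Hspa4 had an adjusted p of 0.000383 in Ddx10KD, 0.000251 in Ddx24KD, 6.35e-05 in Ddx27KD and 0.00045 in Ddx54KD.

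The other HSP70 partners moved less or varied more. Dnaja1, a J-domain co-chaperone, fell in Ddx27KD alone, where its log2 change was -0.25 ± 0.07 in Ddx27KD (edgeR adjusted p 0.0116). Dnaja1 lost its Ddx27KD call without EGFPKD replicate 1 (edgeR adjusted p 0.0596). In the other knockdowns its values were -0.14 in Ddx10KD, -0.16 in Ddx24KD and -0.18 in Ddx54KD, and with the block all of these were called (edgeR adjusted p 0.00723 in Ddx10KD, 0.00239 in Ddx24KD and 0.00126 in Ddx54KD). Hsph1 (HSP105), Dnajb1 (HSP40), Bag3 (a co-chaperone of HSP70 in selective autophagy) and the small heat shock protein Hspb1 (HSP27) were called in no knockdown. Hsph1 ranged from 145 to 228 CPM over the knockdown libraries and from 187 to 225 CPM over EGFPKD libraries, so the groups overlapped, and replicate 3 was the lowest of each group. With the block Hsph1 was called in Ddx27KD, at -0.16 ± 0.05 (edgeR adjusted p 0.0135), and Ddx54KD, at -0.23 ± 0.05 (edgeR adjusted p 0.00151), Bag3 in Ddx54KD, at -0.22 ± 0.06 (edgeR adjusted p 0.00566), and Hspb1 in Ddx24KD, at -0.18 ± 0.05 (edgeR adjusted p 0.00852). Dnajb1, one of the messages raised most by HSF1 after heat shock, had log2 changes of -0.03 in Ddx10KD, 0.03 in Ddx24KD, -0.01 in Ddx27KD and 0.05 in Ddx54KD and was called in neither fit.

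Both subunits of the mitochondrial chaperonin fell in all 4 knockdowns. Hspd1 (HSP60) was at 1002, 980.5 and 878 in Ddx10KD, 1014, 986 and 906 in Ddx24KD, 960.1, 939 and 859 in Ddx27KD, and 1041, 969 and 867 in Ddx54KD libraries, against 1223, 1190.2 and 1103 in EGFPKD libraries (CPM). All knockdown libraries lay below all EGFPKD libraries. For Hspd1 the log2 change was -0.30 ± 0.07 in Ddx10KD, -0.27 ± 0.07 in Ddx24KD, -0.35 ± 0.07 in Ddx27KD and -0.29 ± 0.07 in Ddx54KD. In edgeR, Hspd1 had an adjusted p of 0.00468 in Ddx10KD, 0.00885 in Ddx24KD, 0.00131 in Ddx27KD and 0.00773 in Ddx54KD. Hspd1 lost its Ddx54KD call without Ddx54KD replicate 3 (edgeR adjusted p 0.0508). Hspe1 (HSP10), its lid, ranged from 148 to 181 CPM in knockdown and from 186 to 212 CPM in EGFPKD libraries, with log2 changes of -0.28 in Ddx10KD, -0.24 in Ddx24KD, -0.30 in Ddx27KD and -0.23 in Ddx54KD (edgeR adjusted p 0.00737 in Ddx10KD, 0.0194 in Ddx24KD, 0.00502 in Ddx27KD and 0.031 in Ddx54KD). Hspe1 lost its Ddx24KD call without Ddx24KD replicate 1 or 3 or EGFPKD replicate 1 or 2 (edgeR adjusted p 0.0501 to 0.0928) and its Ddx54KD call without Ddx54KD replicate 3 or EGFPKD replicate 1 or 2 (edgeR adjusted p 0.0871 to 0.147).

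The subunits of TRiC, the chaperonin that folds actin and tubulin, were all on the lower side in every knockdown, and of the 7 members 5 fell in Ddx10KD, 2 in Ddx24KD, 5 in Ddx27KD and 3 in Ddx54KD. Over all genes, 14.5% fell in Ddx10KD, 13.1% in Ddx24KD, 16.1% in Ddx27KD and 11.2% in Ddx54KD. Cct5 fell in all 4, with log2 changes of -0.16 in Ddx10KD, -0.21 in Ddx24KD, -0.25 in Ddx27KD and -0.21 in Ddx54KD, and so did Cct7, with -0.16 in Ddx10KD, -0.19 in Ddx24KD, -0.20 in Ddx27KD and -0.18 in Ddx54KD. For Cct5 the edgeR adjusted p were 0.0215 in Ddx10KD, 0.00598 in Ddx24KD, 0.00115 in Ddx27KD and 0.0072 in Ddx54KD and for Cct7 0.00959 in Ddx10KD, 0.00365 in Ddx24KD, 0.00157 in Ddx27KD and 0.00512 in Ddx54KD. Cct5 was at 588, 596 and 566 in Ddx10KD, 573, 601 and 523 in Ddx24KD, 549, 549 and 548 in Ddx27KD, and 579, 584 and 536 in Ddx54KD libraries, against 646, 667 and 648 in EGFPKD libraries (CPM). Its knockdown libraries were all below the EGFPKD libraries. Cct5 lost its Ddx10KD call without Ddx10KD replicate 3 or EGFPKD replicate 2 (edgeR adjusted p 0.0647 to 0.0886). A TRiC ring is built of several related subunits, each from its own gene. Tcp1 was called in Ddx10KD, Ddx27KD and Ddx54KD, Cct2 and Cct3 in Ddx10KD and Ddx27KD, and Cct4 and Cct8 in none. The median log2 change of the 7 was -0.16 in Ddx10KD, -0.16 in Ddx24KD, -0.18 in Ddx27KD and -0.16 in Ddx54KD. Tcp1 lost its Ddx10KD call without Ddx10KD replicate 3 or EGFPKD replicate 1 or 2 (edgeR adjusted p 0.0626 to 0.119) and its Ddx54KD call without Ddx54KD replicate 3 or EGFPKD replicate 1 or 2 (edgeR adjusted p 0.0761 to 0.126). Cct2 lost its Ddx10KD call without Ddx10KD replicate 1 or 3 or EGFPKD replicate 1 or 2 (edgeR adjusted p 0.0939 to 0.171) and its Ddx27KD call without Ddx27KD replicate 1 or 2 or EGFPKD replicate 2 (edgeR adjusted p 0.053 to 0.0893). Cct3 lost its Ddx10KD call without any 1 Ddx10KD replicate or EGFPKD replicate 1 or 2 (edgeR adjusted p 0.0603 to 0.155). More of the subunits passed when libraries were paired. With the block, Cct8 was called in all 4 knockdowns, Cct3 also in Ddx24KD and Ddx54KD, Tcp1 and Cct4 in Ddx24KD and Cct2 in Ddx54KD.

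**Figure D2:**
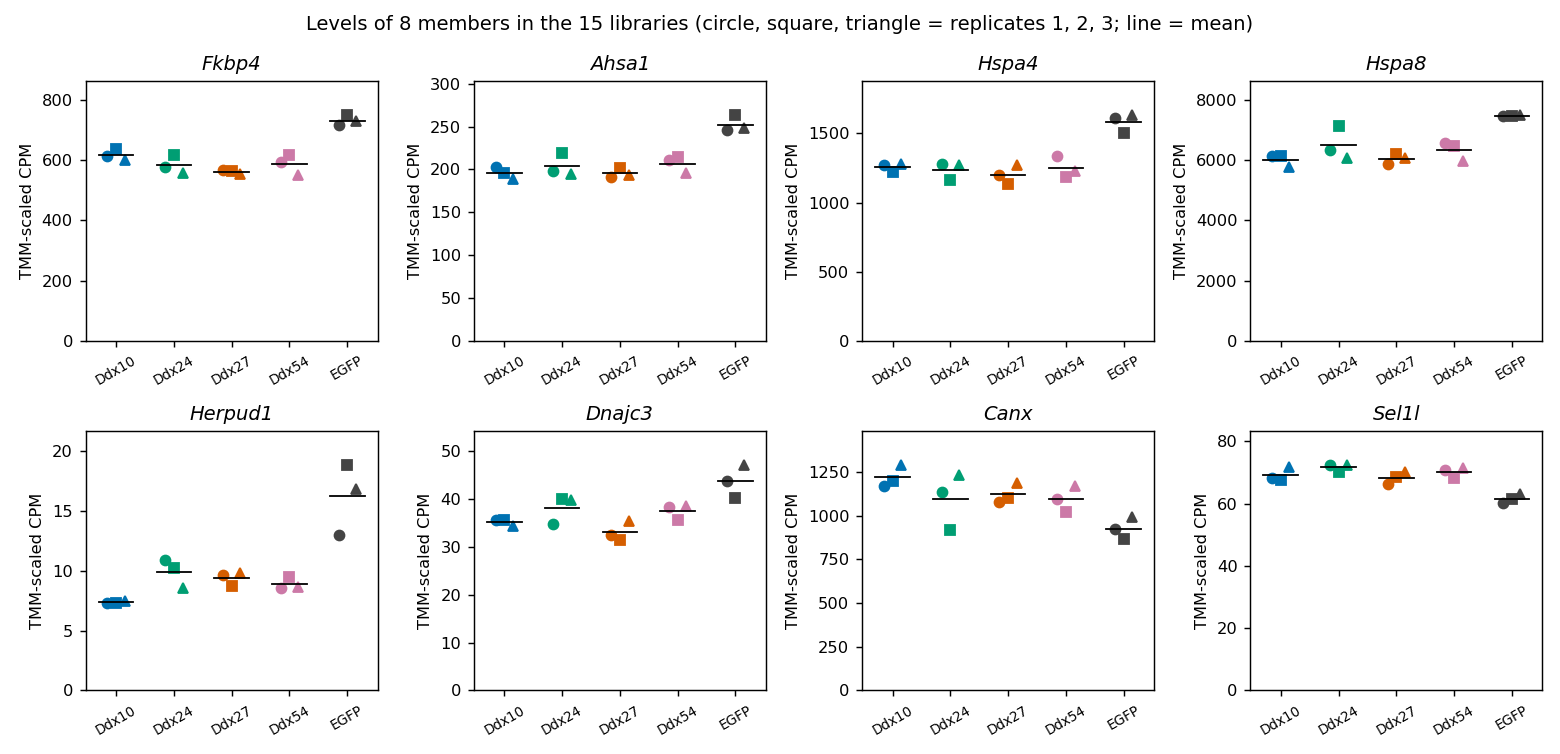
TMM-scaled CPM of Fkbp4, Ahsa1, Hspa4 and Hspa8 (top) and Herpud1, Dnajc3, Canx and Sel1l (bottom) in each library, by the knocked-down gene, with the mean of 3 as a line and the y axes from 0. Fkbp4, Ahsa1, Hspa4, Hspa8, Herpud1 and Dnajc3 lie below EGFPKD in each knockdown library, Sel1l lies above it, and Ddx24KD replicate 2 is the Canx library that falls among the EGFPKD libraries.

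As a share of all TPM, the 23 cytosolic messages together made up 2.48% ± 0.0434 in Ddx10KD, 2.51% ± 0.0792 in Ddx24KD, 2.45% ± 0.0371 in Ddx27KD and 2.51% ± 0.0697 in Ddx54KD libraries, against 2.76% ± 0.0375 in EGFPKD libraries (SD, n = 3 each). No knockdown library reached an EGFPKD library in this sum. Hspa8, Hsp90ab1 and Hsp90aa1 were the most abundant, at 7271, 5310 and 4465 TPM in EGFPKD libraries, and these 3 made up 60.9% to 63.1% of the cytosolic sum in knockdowns and 61.7% in EGFPKD. The summed level differed from EGFPKD by -2842 TPM in Ddx10KD, -2561 TPM in Ddx24KD, -3184 TPM in Ddx27KD and -2524 TPM in Ddx54KD. Hspa8 accounted for -1184 TPM of this in Ddx10KD, -887 TPM in Ddx24KD, -1286 TPM in Ddx27KD and -1022 TPM in Ddx54KD, and Hsp90aa1 for -628 TPM in Ddx10KD, -468 TPM in Ddx24KD, -637.5 TPM in Ddx27KD and -339 TPM in Ddx54KD. Hsp90ab1 differed by -133 TPM in Ddx10KD, 121 TPM in Ddx24KD, 176 TPM in Ddx27KD and -47.2 TPM in Ddx54KD. The 18 endoplasmic reticulum messages made up 0.35% ± 0.00806 in Ddx10KD, 0.36% ± 0.0136 in Ddx24KD, 0.351% ± 0.00136 in Ddx27KD and 0.36% ± 0.0155 in Ddx54KD libraries, against 0.344% ± 0.00801 in EGFPKD libraries, and these ranges overlapped with EGFPKD in all 4 knockdowns. By library, the median of the 23 cytosolic members lay between -0.29 and -0.10 in knockdown libraries and between -0.04 and 0.03 in EGFPKD libraries, as log2 against the EGFPKD mean. In this median replicate 3 was the lowest of each group.

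**Figure D3:**
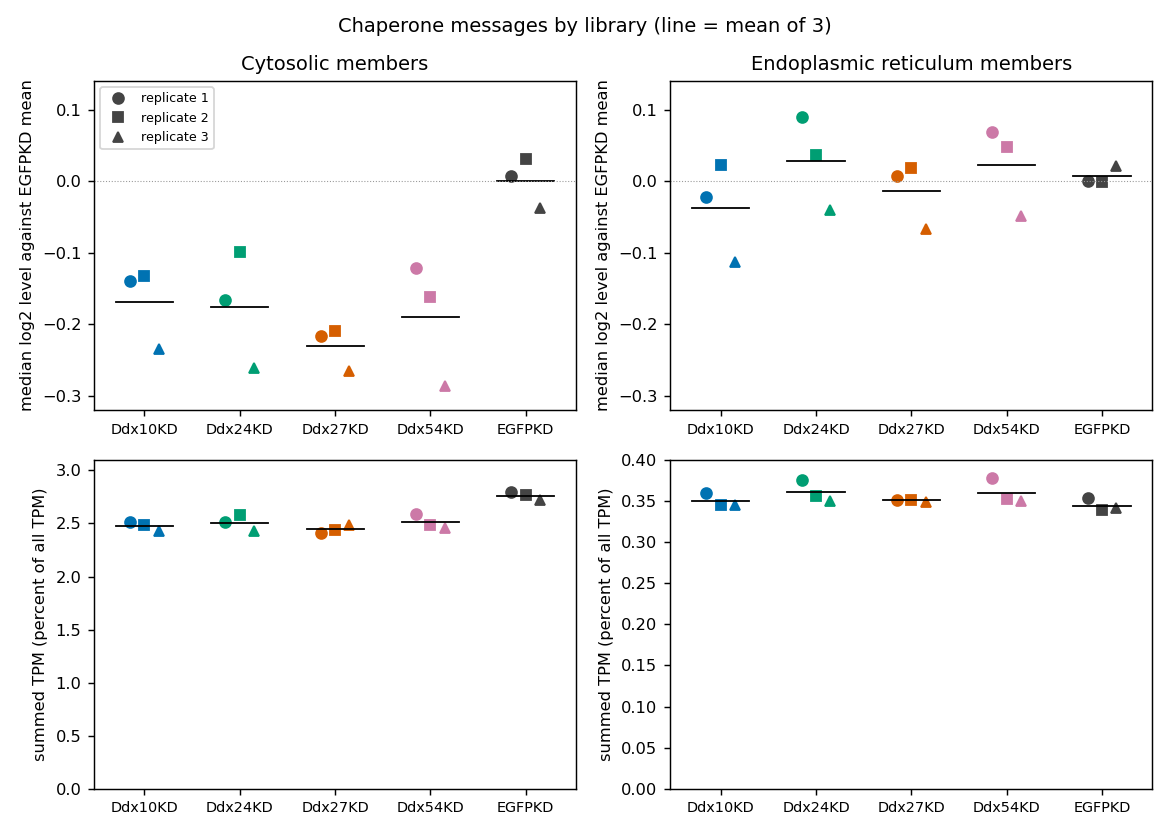
Median log2 level against the EGFPKD mean (top) and summed TPM as percent of all TPM (bottom) for the 23 cytosolic (left) and 18 endoplasmic reticulum members (right) in each library; symbols are replicate numbers and lines are means of 3. Cytosolic values of the knockdowns are all below those of EGFPKD, between -0.29 and -0.10 in the upper panel, while those of the endoplasmic reticulum overlap with EGFPKD.

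Among endoplasmic reticulum members, those called in all 4 knockdowns act in protein degradation: Herpud1 fell and Sel1l rose. Herpud1, a membrane protein that helps to carry misfolded proteins to the degradation machinery and a textbook target of the unfolded protein response, was at 7.29, 7.34 and 7.46 in Ddx10KD, 10.9, 10.2 and 8.57 in Ddx24KD, 9.67, 8.73 and 9.86 in Ddx27KD, and 8.53, 9.50 and 8.68 in Ddx54KD libraries, against 13.0, 18.9 and 16.8 in EGFPKD libraries (CPM). The Ddx10KD libraries were the lowest and lay closest together, every knockdown library was below every EGFPKD library, and EGFPKD replicate 1 was the nearest to them. For Herpud1 the log2 change was -1.14 ± 0.13 in Ddx10KD, -0.71 ± 0.12 in Ddx24KD, -0.78 ± 0.12 in Ddx27KD and -0.87 ± 0.12 in Ddx54KD. In edgeR, Herpud1 had an adjusted p of 6.77e-06 in Ddx10KD, 0.000447 in Ddx24KD, 0.000149 in Ddx27KD and 0.000107 in Ddx54KD. Of the 41 members Herpud1 had the largest change in each knockdown. Sel1l, the adaptor of the HRD1 ubiquitin ligase, was at 68.3, 67.5 and 71.6 in Ddx10KD, 72.5, 70.0 and 72.5 in Ddx24KD, 66.3, 68.5 and 70.1 in Ddx27KD, and 70.7, 68.1 and 71.5 in Ddx54KD libraries, against 60.2, 61.5 and 63.1 in EGFPKD libraries (CPM). Every knockdown library lay above every EGFPKD library. For Sel1l the log2 change was 0.17 ± 0.05 in Ddx10KD, 0.22 ± 0.05 in Ddx24KD, 0.15 ± 0.05 in Ddx27KD and 0.19 ± 0.05 in Ddx54KD. In edgeR, Sel1l had an adjusted p of 0.0126 in Ddx10KD, 0.00251 in Ddx24KD, 0.0215 in Ddx27KD and 0.00834 in Ddx54KD. Sel1l lost its Ddx10KD call without Ddx10KD replicate 3 or EGFPKD replicate 1 (edgeR adjusted p 0.0563 to 0.067) and its Ddx27KD call without Ddx27KD replicate 2 or 3 or EGFPKD replicate 1 or 2 (edgeR adjusted p 0.0618 to 0.0798). Edem1, a mannosidase-like protein that marks glycoproteins for degradation, had log2 changes of 0.14 in Ddx10KD, 0.14 in Ddx24KD, 0.12 in Ddx27KD and 0.07 in Ddx54KD and was not called. With the block it was called in Ddx10KD, Ddx24KD and Ddx27KD (edgeR adjusted p 0.026 in Ddx10KD, 0.0223 in Ddx24KD and 0.0476 in Ddx27KD).

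Of the lectin chaperones, which hold glycoproteins by their sugars, Canx rose in 3 knockdowns and Calr was called in none; the difference between them was not tested. Canx, the membrane-bound calnexin, was at 1169.6, 1199 and 1292 in Ddx10KD, 1133, 919 and 1229.6 in Ddx24KD, 1078, 1098 and 1188 in Ddx27KD, and 1097, 1020.4 and 1167 in Ddx54KD libraries, against 923, 864 and 991 in EGFPKD libraries (CPM). All Ddx10KD, Ddx27KD and Ddx54KD libraries lay above the EGFPKD libraries, and Ddx24KD replicate 2 fell below the highest EGFPKD library. For Canx the log2 change was 0.40 ± 0.09 in Ddx10KD, 0.24 ± 0.09 in Ddx24KD, 0.28 ± 0.09 in Ddx27KD and 0.24 ± 0.09 in Ddx54KD. In edgeR, Canx had an adjusted p of 0.00238 in Ddx10KD, 0.0472 in Ddx24KD, 0.0207 in Ddx27KD and 0.0511 in Ddx54KD. The Ddx54KD value was called with the block (edgeR adjusted p 0.000749). Canx lost its Ddx24KD call without Ddx24KD replicate 1 or 3 or EGFPKD replicate 1 or 2 (edgeR adjusted p 0.108 to 0.243) and its Ddx27KD call without Ddx27KD replicate 3 or EGFPKD replicate 1 or 2 (edgeR adjusted p 0.0569 to 0.0974). Calr, the soluble calreticulin, was called in no knockdown, with log2 changes of -0.22 in Ddx10KD, 0.01 in Ddx24KD, -0.05 in Ddx27KD and -0.02 in Ddx54KD. Within each replicate number the Ddx10KD library was the lowest, at 506, 499 and 430.0 CPM against 573, 574 and 526 CPM in EGFPKD libraries. With the block the Ddx10KD change was called, at -0.22 ± 0.04 (edgeR adjusted p 7.67e-05). Of the disulfide isomerases, Pdia6 fell in Ddx10KD and Ddx27KD, by 0.13 on the log2 scale in each. It was at 253, 248 and 243 in Ddx10KD, 267, 252 and 259 in Ddx24KD, 244, 245 and 256 in Ddx27KD, and 268, 265 and 255 in Ddx54KD libraries, against 273, 272 and 270.3 in EGFPKD libraries (CPM), with every knockdown library below the EGFPKD libraries. In edgeR its adjusted p were 0.0209 in Ddx10KD, 0.23 in Ddx24KD, 0.0209 in Ddx27KD and 0.406 in Ddx54KD. Pdia6 lost its Ddx10KD call without Ddx10KD replicate 2 or 3 or EGFPKD replicate 1 (edgeR adjusted p 0.05 to 0.0838) and its Ddx27KD call without Ddx27KD replicate 1 or 2 or EGFPKD replicate 1 (edgeR adjusted p 0.0635 to 0.0733). Pdia3 (ERp57, the partner of calnexin and calreticulin) and Pdia4 were called in no knockdown, with log2 changes from -0.05 to 0.07 and from 0.05 to 0.12; with the block Pdia4 was called in Ddx24KD, at 0.12 ± 0.04 (edgeR adjusted p 0.0217).

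Called members of the lumenal HSP70 and HSP90 system lay in both directions. Of its 9 members 2 rose and 3 fell in Ddx10KD, 0 were called in Ddx24KD, 1 fell in Ddx27KD, and 1 rose and 1 fell in Ddx54KD. Beside these counts, 31% of all genes were called in Ddx10KD, 28.1% in Ddx24KD, 33.4% in Ddx27KD and 24.3% in Ddx54KD. In Ddx24KD 2 of the 9 had an unadjusted p under 0.05 in edgeR, DESeq2 called 1, Dnajc3, and limma-voom 0. Hspa5 encodes BiP, the HSP70 of the lumen, whose message is the usual gauge of the unfolded protein response. It was at 438, 421 and 383 in Ddx10KD, 516, 535 and 434 in Ddx24KD, 456, 485 and 401 in Ddx27KD, and 538, 503 and 434 in Ddx54KD libraries, against 455, 482 and 431 in EGFPKD libraries (CPM). Groups overlapped, and replicate 3 was the lowest of each knockdown and of EGFPKD. For Hspa5 the log2 change was -0.14 ± 0.09 in Ddx10KD, 0.12 ± 0.09 in Ddx24KD, -0.03 ± 0.09 in Ddx27KD and 0.11 ± 0.09 in Ddx54KD. In edgeR, Hspa5 had an adjusted p of 0.27 in Ddx10KD, 0.358 in Ddx24KD, 0.848 in Ddx27KD and 0.419 in Ddx54KD. With the block Hspa5 was lower in Ddx10KD, at -0.14 ± 0.04 (edgeR adjusted p 0.0109), and higher in Ddx24KD, at 0.11 ± 0.04 (edgeR adjusted p 0.0346).

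Dnajc3 (p58IPK), a co-chaperone of BiP also known as an inhibitor of eIF2α kinases, was at 35.6, 35.5 and 34.2 in Ddx10KD, 34.7, 39.9 and 39.7 in Ddx24KD, 32.4, 31.4 and 35.3 in Ddx27KD, and 38.3, 35.4 and 38.5 in Ddx54KD libraries, against 43.6, 40.2 and 47.1 in EGFPKD libraries (CPM). All knockdown libraries were below the lowest EGFPKD library. For Dnajc3 the log2 change was -0.31 ± 0.07 in Ddx10KD, -0.20 ± 0.07 in Ddx24KD, -0.40 ± 0.07 in Ddx27KD and -0.22 ± 0.07 in Ddx54KD. In edgeR, Dnajc3 had an adjusted p of 0.00371 in Ddx10KD, 0.0533 in Ddx24KD, 0.000524 in Ddx27KD and 0.0348 in Ddx54KD. The Ddx24KD value was called with the block (edgeR adjusted p 0.0148). Dnajc3 lost its Ddx54KD call without Ddx54KD replicate 2 or 3 or EGFPKD replicate 1 or 3 (edgeR adjusted p 0.0598 to 0.159). Hyou1 (GRP170), the exchange factor of BiP, was at 267, 254 and 264 in Ddx10KD, 268, 239 and 259 in Ddx24KD, 258, 241 and 252 in Ddx27KD, and 265, 256 and 250.03 in Ddx54KD libraries, against 238, 219 and 239 in EGFPKD libraries (CPM), and all knockdown libraries exceeded all EGFPKD libraries. For Hyou1 the log2 change was 0.17 ± 0.05 in Ddx10KD, 0.14 ± 0.05 in Ddx24KD, 0.11 ± 0.05 in Ddx27KD and 0.15 ± 0.05 in Ddx54KD. In edgeR, Hyou1 had an adjusted p of 0.0179 in Ddx10KD, 0.055 in Ddx24KD, 0.109 in Ddx27KD and 0.0471 in Ddx54KD. Hyou1 lost its Ddx10KD call without Ddx10KD replicate 1 or 3 or EGFPKD replicate 2 (edgeR adjusted p 0.0567 to 0.114) and its Ddx54KD call without any 1 Ddx54KD replicate or any 1 EGFPKD replicate (edgeR adjusted p 0.0589 to 0.222). With the block it was called in Ddx24KD and Ddx27KD as well (edgeR adjusted p 0.0032 in Ddx24KD and 0.012 in Ddx27KD).

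Hsp90b1, the HSP90 of the lumen, was at 783, 756 and 707 in Ddx10KD, 874, 887 and 782 in Ddx24KD, 796, 794 and 797 in Ddx27KD, and 865, 832 and 776 in Ddx54KD libraries, against 891, 862 and 809 in EGFPKD libraries (CPM). The libraries of Ddx10KD and Ddx27KD lay below those of EGFPKD, and the others overlapped with them. For Hsp90b1 the log2 change was -0.19 ± 0.06 in Ddx10KD, -0.01 ± 0.06 in Ddx24KD, -0.10 ± 0.06 in Ddx27KD and -0.05 ± 0.06 in Ddx54KD. In edgeR, Hsp90b1 had an adjusted p of 0.02 in Ddx10KD, 0.913 in Ddx24KD, 0.193 in Ddx27KD and 0.569 in Ddx54KD. Hsp90b1 lost its Ddx10KD call without Ddx10KD replicate 3 or EGFPKD replicate 1 or 2 (edgeR adjusted p 0.0517 to 0.101). Manf, a secreted factor that binds BiP, likewise fell in Ddx10KD alone, by 0.24 on the log2 scale (edgeR adjusted p 0.0379), and Dnajb11, a J-domain partner of BiP, rose there alone, by 0.18 (edgeR adjusted p 0.019). Manf lost its Ddx10KD call without Ddx10KD replicate 2 or 3 or any 1 EGFPKD replicate (edgeR adjusted p 0.0686 to 0.157). Dnajb11 lost its Ddx10KD call without Ddx10KD replicate 2 or EGFPKD replicate 1 or 2 (edgeR adjusted p 0.0683 to 0.0884). With the block Hsp90b1 and Manf were also called in Ddx27KD. The remaining members of the system, Dnajb9, Sdf2l1 and Creld2, were called in no knockdown, with log2 changes from -0.17 to 0.19, and with the block Sdf2l1 was called in Ddx10KD, at -0.17 ± 0.06 (edgeR adjusted p 0.0308).

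Xbp1 encodes the transcription factor that IRE1 activates by splicing its message, and counts per gene do not tell spliced from unspliced message. It was at 129.7, 129 and 131 in Ddx10KD, 130.4, 101 and 136 in Ddx24KD, 119.7, 125 and 128 in Ddx27KD, and 122, 128 and 127 in Ddx54KD libraries, against 127, 118 and 126 in EGFPKD libraries (CPM). Ddx24KD replicate 2 was the lowest of the 15, and the Ddx10KD libraries lay just above the EGFPKD libraries. For Xbp1 the log2 change was 0.07 ± 0.08 in Ddx10KD, -0.02 ± 0.08 in Ddx24KD, 0.01 ± 0.08 in Ddx27KD and 0.02 ± 0.08 in Ddx54KD, and no knockdown was called in edgeR with or without the block (adjusted p without it 0.527 in Ddx10KD, 0.901 in Ddx24KD, 0.954 in Ddx27KD and 0.867 in Ddx54KD).

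Members with either of the endoplasmic reticulum stress elements were called in both directions. Beside the counts here, 31% of all genes were called in Ddx10KD, 28.1% in Ddx24KD, 33.4% in Ddx27KD and 24.3% in Ddx54KD. Of the 7 with the endoplasmic reticulum stress element, Canx rose in 3 knockdowns, Dnajc3 fell in 3, Pdia6 fell in 2 and Hsp90b1 in 1, and Calr, Creld2 and Hspa5 were called in none. Herpud1, with ERSE-II, fell in all 4, and Dnajb11, with the same element, rose in Ddx10KD. Of the 4 with the heat shock element, Hspd1 and Hspe1 fell in all 4 knockdowns and Chordc1 and Hsph1 were called in none. With the block Calr fell in Ddx10KD, Hsph1 fell in Ddx27KD and Ddx54KD, and Hspa5 and Chordc1 were called in both directions, as given above.

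Between knockdowns, no member was called in any of the 6 pairs by edgeR without the block, where 1.6% of all genes were called in at least 1 pair. By pair, 0.412% (Ddx10KD against Ddx24KD), 0.223% (Ddx10KD against Ddx27KD), 1.43% (Ddx10KD against Ddx54KD), 0.0209% (Ddx24KD against Ddx27KD), 0.0558% (Ddx24KD against Ddx54KD) and 0.014% (Ddx27KD against Ddx54KD) of all genes were called. At an unadjusted p under 0.05 Ddx10KD differed from Ddx24KD in 7 members (10.9% of all genes), from Ddx27KD in 5 (11.4%) and from Ddx54KD in 8 (14.7%). At the same limit Ddx24KD differed from Ddx27KD in 2 members (4.14%) and from Ddx54KD in 0 (6.47%), and Ddx27KD from Ddx54KD in 3 (7.75%). DESeq2 called 1 member, Chordc1, higher in Ddx10KD than in Ddx27KD, and limma on log2(TPM + 1) called Chordc1 and Fkbp4 in that pair. With the replicate block 14 members differed in at least 1 pair, 7 of each compartment, where 15.6% of all genes did. All but 1 of these, Hspb1, which was lower in Ddx24KD than in Ddx54KD, differed in pairs with Ddx10KD.

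Several lumenal messages were lower in Ddx10KD than in Ddx24KD and Ddx54KD once libraries of the same number were compared. Hspa5 was lower in Ddx10KD than in Ddx24KD (log2 change -0.25 ± 0.04; edgeR with the block, adjusted p 0.00154) and lower than in Ddx54KD (log2 change -0.24 ± 0.04, adjusted p 0.00111). The 3 Ddx10KD libraries held 438, 421 and 383 CPM, against 516, 535 and 434 CPM in Ddx24KD libraries, and within each number Ddx10KD was the lower. Calr was lower in Ddx10KD than in the others, with log2 changes of -0.23 ± 0.04 against Ddx24KD, -0.17 ± 0.04 against Ddx27KD and -0.20 ± 0.04 against Ddx54KD. With the block the edgeR adjusted p of Calr were 0.00134 against Ddx24KD, 0.0135 against Ddx27KD and 0.00184 against Ddx54KD. These differences pass with the block and not without it. Hsp90b1 and Manf were lower in Ddx10KD than in Ddx24KD and Ddx54KD, Pdia3 than in Ddx54KD, and Herpud1 than in Ddx24KD, whereas Canx was higher in Ddx10KD than in Ddx54KD. Of the cytosolic members, Hsp90ab1 was lower in Ddx10KD than in Ddx24KD and Ddx27KD, and Hsp90aa1 than in Ddx54KD. Fkbp4 and Chordc1 were higher in Ddx10KD than in Ddx27KD, Hsph1 than in Ddx27KD and Ddx54KD, and Bag3 than in Ddx54KD. These blocked adjusted p, from edgeR, lay between 0.00111 and 0.0479, and with the block 5.41% of all genes were called between Ddx10KD and Ddx24KD, 5.34% between Ddx10KD and Ddx27KD and 10.6% between Ddx10KD and Ddx54KD. Between Ddx24KD and Ddx27KD 0.0558% were called with the block, between Ddx24KD and Ddx54KD 1.74% and between Ddx27KD and Ddx54KD 2.62%.

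**Figure D4:**
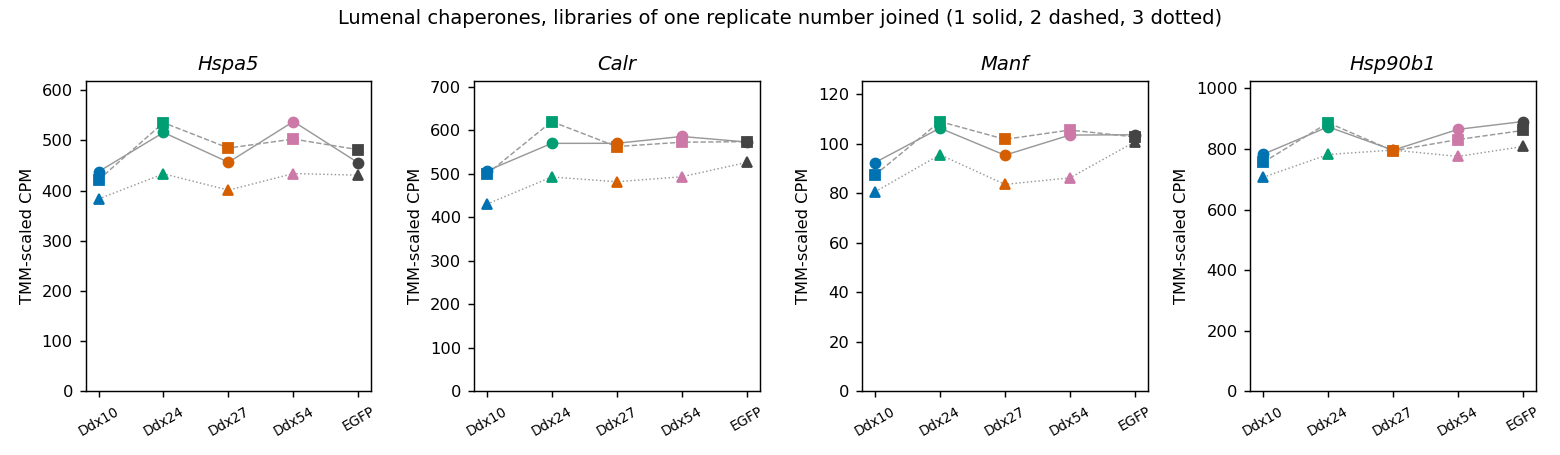
TMM-scaled CPM of Hspa5, Calr, Manf and Hsp90b1 in each library, by the knocked-down gene, with libraries of replicate 1 (solid line), 2 (dashed) and 3 (dotted) joined across groups and the y axes from 0. Along each line Ddx10KD lies below Ddx24KD and Ddx54KD, and most libraries of replicate 3 are low in each group.

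Other genes of protein folding were taken from lists of related roles. Up to 4 of each list, those with the smallest p over the 5 groups, are named. Values are log2 changes against EGFPKD, and calls are from edgeR without the block. Whether the block called further values of these genes was not examined. Over all genes tested, edgeR called 31% in Ddx10KD (16.5% higher and 14.5% lower) and 28.1% in Ddx24KD (15% higher and 13.1% lower). It called 33.4% in Ddx27KD (17.3% higher and 16.1% lower) and 24.3% in Ddx54KD (13.1% higher and 11.2% lower). These shares stand beside the counts of this list and of each list below. Of 7 further HSP90 co-chaperones 3, Fkbp5, Ppid and Cdc37, fell in all 4 knockdowns. In each knockdown 1 more fell, which was Ptges3 in Ddx24KD, Ddx27KD and Ddx54KD and another gene in Ddx10KD, and 1 rose in Ddx10KD and 1 in Ddx27KD. Fkbp5 (FKBP51) had log2 changes of -0.61 in Ddx10KD, -0.60 in Ddx24KD, -0.69 in Ddx27KD and -0.61 in Ddx54KD, Ppid (cyclophilin 40) -0.25 in Ddx10KD, -0.35 in Ddx24KD, -0.37 in Ddx27KD and -0.38 in Ddx54KD, and Cdc37, which brings kinases to HSP90, -0.24 in Ddx10KD, -0.23 in Ddx24KD, -0.26 in Ddx27KD and -0.23 in Ddx54KD, all called in edgeR (adjusted p at most 0.00311). Ptges3 (p23) fell, with -0.18 in Ddx24KD, -0.29 in Ddx27KD and -0.23 in Ddx54KD. Ptges3 lost its Ddx24KD call without Ddx24KD replicate 1 or 3 or EGFPKD replicate 1 (edgeR adjusted p 0.0501 to 0.103).

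Of 10 further chaperonin and prefoldin genes 3 fell in Ddx10KD, 2 in Ddx24KD, 5 in Ddx27KD and 2 in Ddx54KD and 0 rose, among them the TRiC subunit Cct6a with -0.24 in Ddx10KD, -0.21 in Ddx24KD, -0.30 in Ddx27KD and -0.26 in Ddx54KD. Cct6a lost its Ddx10KD call without Ddx10KD replicate 3 (edgeR adjusted p 0.0532) and its Ddx24KD call without Ddx24KD replicate 3 or EGFPKD replicate 1 or 2 (edgeR adjusted p 0.0617 to 0.097). Pdcl3, a cofactor of TRiC, fell, with -0.27 in Ddx10KD, -0.20 in Ddx24KD and -0.30 in Ddx27KD. The prefoldin subunit Pfdn1 fell, with -0.27 in Ddx10KD, and Pfdn6 likewise, with -0.19 in Ddx27KD. Pdcl3 lost its Ddx24KD call without Ddx24KD replicate 1 or 3 or EGFPKD replicate 2 or 3 (edgeR adjusted p 0.0632 to 0.16). Pfdn6 lost its Ddx27KD call without Ddx27KD replicate 2 or 3 or EGFPKD replicate 1 or 2 (edgeR adjusted p 0.0669 to 0.167).

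Of 19 further genes of the cytosolic HSP70 system 3 rose and 3 fell in Ddx10KD, 1 rose and 3 fell in Ddx24KD, 4 rose and 4 fell in Ddx27KD and 0 rose and 4 fell in Ddx54KD. Outside the 4 with the smallest p, Hspa1a differed over the 5 groups (edgeR adjusted p 0.0245). Its mean was highest in Ddx27KD and lowest in EGFPKD, with a ratio of 1.88 between them. Hspa1b was highest in EGFPKD and did not pass (edgeR adjusted p 0.0851). Hspa4l, a relative of Hspa4, rose by 0.66 in Ddx10KD, 0.57 in Ddx24KD and 0.61 in Ddx27KD, while its value in Ddx54KD, 0.39, was not called (edgeR adjusted p 0.0611). The exchange factor Hspbp1 fell in all 4, with -0.35 in Ddx10KD, -0.22 in Ddx24KD, -0.28 in Ddx27KD and -0.22 in Ddx54KD, as did the J-domain protein Dnaja2, with -0.21 in Ddx10KD, -0.15 in Ddx24KD, -0.26 in Ddx27KD and -0.19 in Ddx54KD, and St13 (HIP), with -0.21 in Ddx10KD, -0.14 in Ddx24KD, -0.22 in Ddx27KD and -0.17 in Ddx54KD. Hspbp1 lost its Ddx24KD call without Ddx24KD replicate 3 or EGFPKD replicate 2 or 3 (edgeR adjusted p 0.0519 to 0.115) and its Ddx54KD call without Ddx54KD replicate 3 or EGFPKD replicate 2 or 3 (edgeR adjusted p 0.0517 to 0.117). Dnaja2 lost its Ddx10KD call without Ddx10KD replicate 3 (edgeR adjusted p 0.0531), its Ddx24KD call without Ddx24KD replicate 1 or 3 or any 1 EGFPKD replicate (edgeR adjusted p 0.0721 to 0.172) and its Ddx54KD call without Ddx54KD replicate 3 or EGFPKD replicate 2 (edgeR adjusted p 0.0558 to 0.0894). St13 lost its Ddx24KD call without Ddx24KD replicate 1 or 3 or EGFPKD replicate 1 or 2 (edgeR adjusted p 0.111 to 0.163) and its Ddx54KD call without Ddx54KD replicate 1 or 3 or EGFPKD replicate 1 or 2 (edgeR adjusted p 0.0567 to 0.085).

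Of 7 further mitochondrial chaperones and proteases 1 rose and 2 fell in Ddx10KD, 0 rose and 3 fell in Ddx24KD, 0 rose and 4 fell in Ddx27KD and 0 rose and 2 fell in Ddx54KD, with Grpel1, the exchange factor of mitochondrial HSP70, at -0.28 in Ddx10KD, -0.25 in Ddx24KD, -0.33 in Ddx27KD and -0.22 in Ddx54KD. Grpel1 lost its Ddx54KD call without Ddx54KD replicate 3 (edgeR adjusted p 0.0678). The protease Lonp1 fell in all 4, with -0.14 in Ddx10KD, -0.15 in Ddx24KD, -0.19 in Ddx27KD and -0.18 in Ddx54KD, and the mitochondrial HSP90, Trap1, fell, with -0.16 in Ddx24KD and -0.13 in Ddx27KD. Clpp, another protease, rose, with 0.18 in Ddx10KD. Lonp1 lost its Ddx10KD call without Ddx10KD replicate 1 or EGFPKD replicate 3 (edgeR adjusted p 0.0628 to 0.0684). Trap1 lost its Ddx27KD call without Ddx27KD replicate 1 or 2 or EGFPKD replicate 1 or 3 (edgeR adjusted p 0.0653 to 0.102). Clpp lost its Ddx10KD call without Ddx10KD replicate 1 or 2 or any 1 EGFPKD replicate (edgeR adjusted p 0.0784 to 0.131).

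Of 16 further folding enzymes of the endoplasmic reticulum 2 rose and 5 fell in Ddx10KD, 1 rose and 5 fell in Ddx24KD, 1 rose and 6 fell in Ddx27KD and 1 rose and 5 fell in Ddx54KD. The disulfide isomerase Txndc5 had log2 changes of -0.37 in Ddx10KD, -0.43 in Ddx24KD, -0.41 in Ddx27KD and -0.38 in Ddx54KD, the cyclophilin Ppib -0.23 in Ddx10KD, -0.34 in Ddx24KD, -0.36 in Ddx27KD and -0.26 in Ddx54KD and Cnpy2 -0.33 in Ddx10KD, -0.49 in Ddx24KD, -0.43 in Ddx27KD and -0.44 in Ddx54KD, all called (edgeR adjusted p at most 0.00547). Ganab, the alpha subunit of glucosidase II, rose in all 4, with 0.22 in Ddx10KD, 0.14 in Ddx24KD, 0.22 in Ddx27KD and 0.15 in Ddx54KD. Ganab lost its Ddx24KD call without Ddx24KD replicate 1 or 3 or any 1 EGFPKD replicate (edgeR adjusted p 0.0654 to 0.181) and its Ddx54KD call without any 1 Ddx54KD replicate or any 1 EGFPKD replicate (edgeR adjusted p 0.0588 to 0.102).

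Of 13 further genes of endoplasmic reticulum associated degradation 3 rose and 0 fell in Ddx10KD, 3 rose and 1 fell in Ddx24KD, 3 rose and 1 fell in Ddx27KD and 2 rose and 1 fell in Ddx54KD. Syvn1, the HRD1 ubiquitin ligase to which the Sel1l product binds, was among those that rose, with 0.28 in Ddx10KD, 0.27 in Ddx24KD, 0.29 in Ddx27KD and 0.19 in Ddx54KD. Syvn1 lost its Ddx54KD call without Ddx54KD replicate 1 or 3 or EGFPKD replicate 1 or 3 (edgeR adjusted p 0.065 to 0.0823). The lectin Os9 rose, with 0.38 in Ddx10KD, 0.21 in Ddx24KD and 0.23 in Ddx27KD, and Derl3 rose, with 0.61 in Ddx24KD, 0.49 in Ddx27KD and 0.63 in Ddx54KD. Vcp, the ATPase that pulls substrates from the membrane, fell, with -0.15 in Ddx24KD, -0.27 in Ddx27KD and -0.19 in Ddx54KD. Os9 lost its Ddx24KD call without Ddx24KD replicate 3 or any 1 EGFPKD replicate (edgeR adjusted p 0.0744 to 0.204) and its Ddx27KD call without Ddx27KD replicate 2 or EGFPKD replicate 2 (edgeR adjusted p 0.0743 to 0.102). Derl3 lost its Ddx27KD call without Ddx27KD replicate 2 (edgeR adjusted p 0.052). Vcp lost its Ddx24KD call without Ddx24KD replicate 3 or EGFPKD replicate 1 or 2 (edgeR adjusted p 0.054 to 0.101).

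Of 19 genes of the translocon and signal sequence handling 1 rose and 2 fell in Ddx10KD, in Ddx24KD and in Ddx54KD. In Ddx27KD 1 rose and 5 fell. Beside these counts, 31% of all genes were called in Ddx10KD, 28.1% in Ddx24KD, 33.4% in Ddx27KD and 24.3% in Ddx54KD. Srp72, of the signal recognition particle, rose in all 4, with 0.19 in Ddx10KD, 0.13 in Ddx24KD, 0.18 in Ddx27KD and 0.14 in Ddx54KD. The channel subunit Sec61a1 fell, with -0.14 in Ddx24KD, -0.19 in Ddx27KD and -0.18 in Ddx54KD, as did Ssr3, with -0.13 in Ddx10KD, -0.17 in Ddx27KD and -0.15 in Ddx54KD, and Srpr, with -0.20 in Ddx27KD. Srp72 lost its Ddx24KD call without Ddx24KD replicate 1 or 3 or any 1 EGFPKD replicate (edgeR adjusted p 0.0756 to 0.138) and its Ddx54KD call without any 1 Ddx54KD replicate or any 1 EGFPKD replicate (edgeR adjusted p 0.0707 to 0.132). Sec61a1 lost its Ddx24KD call without Ddx24KD replicate 2 or 3 or EGFPKD replicate 1 or 3 (edgeR adjusted p 0.0617 to 0.0833). Ssr3 lost its Ddx10KD call without Ddx10KD replicate 2 or 3 or any 1 EGFPKD replicate (edgeR adjusted p 0.0503 to 0.166) and its Ddx54KD call without Ddx54KD replicate 2 or 3 or EGFPKD replicate 1 or 3 (edgeR adjusted p 0.0637 to 0.119).

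Among 9 stress sensors and transcription factors, 1 rose and 0 fell in Ddx10KD, 2 rose and 1 fell in Ddx24KD, 2 rose and 1 fell in Ddx27KD and 1 rose and 0 fell in Ddx54KD. Mbtps2, the site-2 protease that releases ATF6, rose by 0.63 in Ddx10KD, 0.57 in Ddx24KD, 0.60 in Ddx27KD and 0.51 in Ddx54KD (edgeR adjusted p 8.82e-05 in Ddx10KD, 0.000264 in Ddx24KD, 0.000123 in Ddx27KD and 0.000777 in Ddx54KD). Atf6 itself fell in Ddx24KD and Ddx27KD, with -0.18 in Ddx24KD and -0.25 in Ddx27KD, and Eif2ak3 (PERK) rose in the same knockdowns, with 0.26 in Ddx24KD and 0.22 in Ddx27KD. Atf6 lost its Ddx24KD call without Ddx24KD replicate 3 or EGFPKD replicate 2 or 3 (edgeR adjusted p 0.0612 to 0.112). Eif2ak3 lost its Ddx24KD call without Ddx24KD replicate 1 or 3 or EGFPKD replicate 1 or 2 (edgeR adjusted p 0.0649 to 0.106) and its Ddx27KD call without any 1 Ddx27KD replicate or any 1 EGFPKD replicate (edgeR adjusted p 0.0689 to 0.149). The messages of Hsf1, Hsf2 and Ern1 (IRE1) were called in no knockdown, with log2 changes of 0.04 in Ddx10KD, 0.07 in Ddx24KD, 0.00 in Ddx27KD and 0.05 in Ddx54KD for Hsf1, 0.07 in Ddx10KD, 0.06 in Ddx24KD, -0.02 in Ddx27KD and 0.02 in Ddx54KD for Hsf2 and -0.02 in Ddx10KD, -0.10 in Ddx24KD, -0.13 in Ddx27KD and -0.27 in Ddx54KD for Ern1. Of 6 genes of the PERK arm, 0 rose and 3 fell in Ddx10KD, 1 rose and 3 fell in Ddx24KD, 0 rose and 2 fell in Ddx27KD and 0 rose and 3 fell in Ddx54KD. The largest of these changes was that of Chac1, a glutathione-degrading enzyme downstream of ATF4, with -2.09 in Ddx10KD, -1.45 in Ddx24KD, -1.83 in Ddx27KD and -1.58 in Ddx54KD (edgeR adjusted p 0.000108 in Ddx10KD, 0.00166 in Ddx24KD, 0.000252 in Ddx27KD and 0.00115 in Ddx54KD). Atf4 had log2 changes of -0.54 in Ddx10KD, -0.24 in Ddx24KD, -0.18 in Ddx27KD and -0.31 in Ddx54KD (edgeR adjusted p 4.89e-05 in Ddx10KD, 0.0224 in Ddx24KD, 0.0617 in Ddx27KD and 0.00559 in Ddx54KD), and Trib3, another target of ATF4, -0.49 in Ddx10KD, -0.55 in Ddx24KD, -0.35 in Ddx27KD and -0.32 in Ddx54KD (edgeR adjusted p 0.00436 in Ddx10KD, 0.00239 in Ddx24KD, 0.0283 in Ddx27KD and 0.0499 in Ddx54KD). Ppp1r15a (GADD34), which recruits the phosphatase of eIF2α, rose, with 0.42 in Ddx24KD. Ppp1r15a lost its Ddx24KD call without Ddx24KD replicate 2 or EGFPKD replicate 1 or 3 (edgeR adjusted p 0.0891 to 0.113). Atf4 lost its Ddx24KD call without Ddx24KD replicate 1 or 3 or EGFPKD replicate 2 (edgeR adjusted p 0.0741 to 0.0938). Trib3 lost its Ddx27KD call without Ddx27KD replicate 2 or 3 or EGFPKD replicate 2 or 3 (edgeR adjusted p 0.0519 to 0.107) and its Ddx54KD call without Ddx54KD replicate 1 or 3 or EGFPKD replicate 2 or 3 (edgeR adjusted p 0.073 to 0.199).

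**Figure D5:**
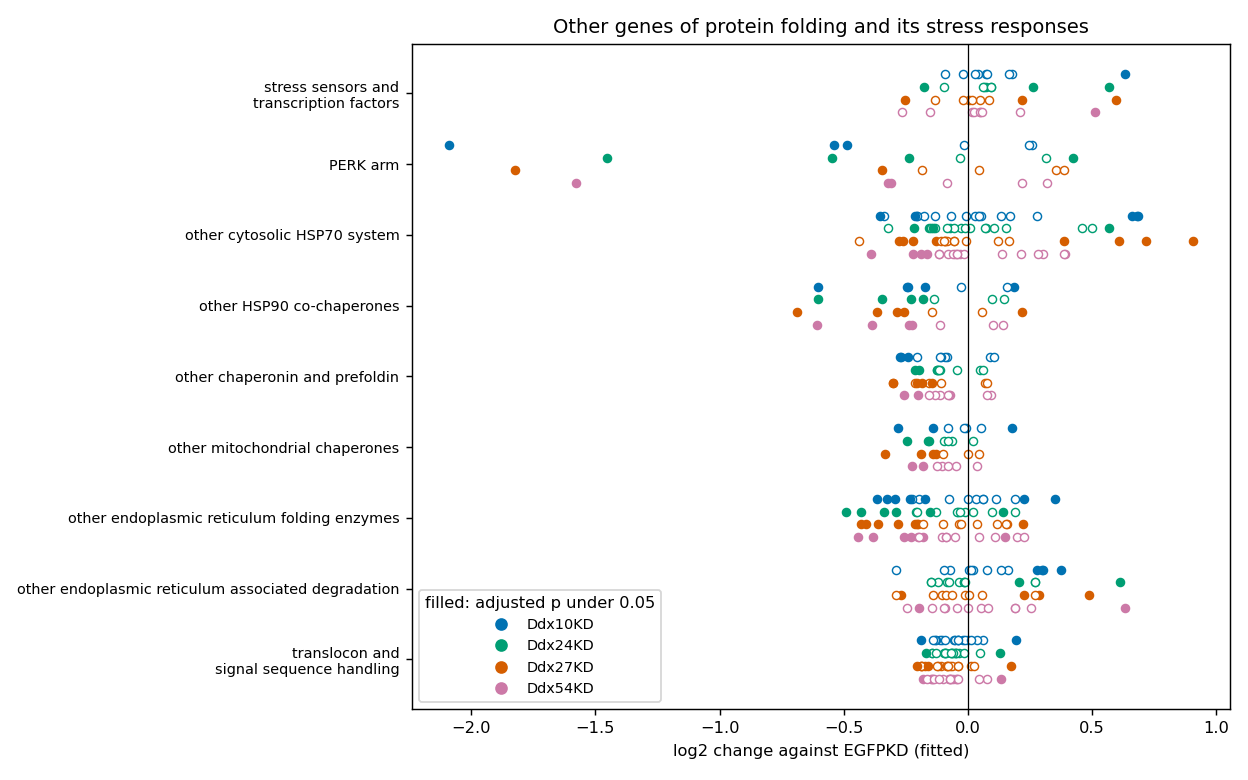
Fitted log2 change against EGFPKD of the further folding and stress response genes, 1 point per gene, by list (rows) and by Ddx10KD, Ddx24KD, Ddx27KD and Ddx54KD within a row; filled points have an edgeR adjusted p under 0.05. Filled points of the HSP90 co-chaperones and of the chaperonin row lie mostly left of 0, those of degradation mostly right, and the point farthest left is Chac1 at -2.09 in Ddx10KD.

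The authors' deposited tables of EBSeq results give the same members a posterior probability of differential expression. At 0.95 or more, in the authors' deposited tables, 0 cytosolic members were higher in any knockdown, and 12 were lower in Ddx10KD, 8 in Ddx24KD, 16 in Ddx27KD and 9 in Ddx54KD. Of the endoplasmic reticulum members, in the authors' deposited tables, 3 were higher and 4 lower in Ddx10KD, 0 and 2 in Ddx24KD, 1 and 3 in Ddx27KD, and 0 and 1 in Ddx54KD. Of all genes listed, 17.1% passed in the authors' deposited tables in Ddx10KD, 12.4% in Ddx24KD, 18.3% in Ddx27KD and 13.1% in Ddx54KD. Herpud1 had ratios of the knockdown to EGFPKD of 0.452 in Ddx10KD, 0.636 in Ddx24KD, 0.579 in Ddx27KD and 0.546 in Ddx54KD in the authors' deposited tables and passed in all 4. Sel1l, which edgeR called in all 4, passed there in none, with probabilities of 8.38e-08 in Ddx10KD, 0.00882 in Ddx24KD, 1.31e-09 in Ddx27KD and 1.23e-06 in Ddx54KD. Of the cytosolic members that edgeR called in all 4, Hspa8 and Hspa4 did not pass in Ddx24KD, nor Hspd1 and Hspe1 in Ddx54KD. Canx did not pass in Ddx24KD. The ratios in the Ddx24KD table could be recomputed less closely than those of the others: after the median gap of each table was taken off, 95% of the log2 ratios lay within 0.137 of those recomputed, beside 0.0021 to 0.0024 in the other authors' deposited tables. These median gaps, recomputed minus deposited, were 0.0296 for Ddx10KD, -0.0038 for Ddx24KD, 0.0045 for Ddx27KD and 0.026 for Ddx54KD in the authors' deposited tables.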

How the data were processed

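The data are 15 RNA-seq libraries made after oligo-dT capture, per the labels' protocols, with 3 biological replicates in each group, per the series design. Per the submitters' processing notes, the authors ran RSEM against mm10 and deposited its results; the version of RSEM and its aligner are not stated there. These files, per the file headers, hold expected counts (estimated reads per gene, not scaled), TPM, FPKM (not used) and transcript lengths. In the authors' deposited EBSeq tables the probabilities are scores per gene and the fold changes are ratios of knockdown to EGFPKD. RSEM divides reads shared between genes, and all 41 members had fractional counts in at least 1 library, so levels of genes with close copies (Hsp90aa1, Hsp90ab1, Hspa8, Hspe1) are less certain.

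Expected counts were rounded, filtered with filterByExpr (14335 of 23845 genes, 99.97% of counts) and scaled by TMM. All 15 libraries entered 1 fit with edgeR's quasi-likelihood test, the main test, with Benjamini-Hochberg adjustment over all genes tested and a threshold of 0.05. CPM are TMM-scaled; log2 changes are fitted values ± SE. The tools were edgeR 4.0.16, DESeq2 1.42.0 and limma 3.58.1 in R 4.3.3, and the script was tested on simulated data.

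Whether the numbers pair libraries was checked: all 30 correlations between same-numbered libraries of different groups, after group means were removed, were above 0.1 (0.106 to 0.335 with a prior count of 2; with a prior count of 1, 28 of 30, the lowest 0.093), and each of the 15 libraries was most like another of its number. Libraries of the same number were therefore taken as pairs, and the block is given beside results of members that it changes. For the other named genes only calls lost with the block were counted, and calls gained were not. The members and lists were chosen with earlier results of these data known. Values in every library are given for the 7 members of each compartment with the smallest p over the 5 groups and for Hspa5, Xbp1, Hsp90aa1 and Hspa8 (those of Hspd1 and Cct5 were added after their values were seen). Of each other list up to 4 genes with the smallest p are named, plus Hsf1, Ern1, Atf6 and Eif2ak3. Hspa1a and Hspa1b were added after their values were seen. The alternatives tried were the replicate block, each library left out in turn, an adjusted p under 0.01, fits of only the groups compared, scaling by RLE or upper-quartile, other tests (DESeq2, limma-voom and limma on log2(TPM + 1)) and either no filter or one of 10 CPM in 3 libraries. Leaving out all 5 libraries numbered 2 or 3 was added after seeing the data.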

Additional observations from a re-analysis of the deposited data

How the results depend on the processing

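No called change of a member reversed under the alternatives in which each gene's call was taken (all but those that leave out the libraries of 1 number), and 24 of the 72 calls of members against EGFPKD were lost when 1 of the compared libraries was left out. The cytosolic counts over these fits were 10 to 14 in Ddx10KD, 8 to 13 in Ddx24KD, 14 to 16 in Ddx27KD and 8 to 14 in Ddx54KD. Those of the endoplasmic reticulum were 4 to 8 in Ddx10KD, 2 to 6 in Ddx24KD, 2 to 5 in Ddx27KD and 2 to 3 in Ddx54KD. Of all genes, these fits called 22% to 27.4% in Ddx10KD and 19.8% to 29.7% in Ddx24KD. They called 26.8% to 29% in Ddx27KD and 15.4% to 23.9% in Ddx54KD. With the replicate block the cytosolic members called were 17 in Ddx24KD and 18 in Ddx54KD, those of the endoplasmic reticulum 8 in Ddx24KD and 9 in Ddx27KD, 33 members differed over the 5 groups and 14 between knockdowns; no call was lost. At an adjusted p under 0.01 the endoplasmic reticulum counts were 3 in Ddx10KD, 2 in Ddx27KD and 2 in Ddx54KD. At that limit 18.6% of all genes were called in Ddx10KD, 21.2% in Ddx27KD and 13% in Ddx54KD. With limma on log2(TPM + 1) the endoplasmic reticulum counts were 3 in Ddx27KD (31.5% of all genes called) and 2 in Ddx54KD (22.4%). That test called 2 members between knockdowns. DESeq2 called 1 member between knockdowns. Other calls of members were lost by limma on log2(TPM + 1) (12: Tcp1, Cct2, Cct3, Cct5, Hsp90b1, Manf and Pdia6 in Ddx10KD, Canx in Ddx24KD, Pdia6 and Sel1l in Ddx27KD, Hyou1 and Dnajc3 in Ddx54KD), by a fit of the compared groups alone (5: Cct2 in Ddx10KD, Hsp90aa1, Hspa8 and Canx in Ddx24KD, Hyou1 in Ddx54KD), by RLE factors (Canx in Ddx24KD, Hyou1 in Ddx54KD), by upper-quartile factors (Cct2 and Cct3 in Ddx10KD), without a count filter (Cct2 in Ddx10KD, Hyou1 in Ddx54KD) and by limma-voom (Canx in Ddx24KD). Ahsa1, Stip1, Fkbp4, Cacybp, Hspa4, Cct7 and Herpud1 kept their call in all 4 knockdowns in every alternative at an adjusted p of 0.05, those that leave out all libraries of 1 number aside (counts only were taken there). Without the 5 libraries numbered 2 (added after seeing the data), 9 cytosolic and 3 endoplasmic reticulum members were called in Ddx10KD (21.7% of all genes). In Ddx27KD 3 endoplasmic reticulum members were called without them (23% of all genes). Without those numbered 3, 1 endoplasmic reticulum member was called in Ddx54KD (12.3% of all genes). The cause was not tested. Uncalled values near 0 changed sign when 1 library was left out: Hspa5 in Ddx27KD ranged from -0.091 to 0.046 on the log2 scale, and Xbp1 from -0.098 to 0.105 in Ddx24KD, from -0.026 to 0.032 in Ddx27KD and from -0.012 to 0.043 in Ddx54KD. Of 110 calls among the other named genes, 35 were lost without 1 library and 0 with the block. Hspa1a and Hspa1b were not among the genes followed here. Calls gained were not counted for these genes.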
